A study of Rattus norvegicus with 8 samples.

Results

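The 35 genes described here encode the machinery that builds autophagosomes and the mTOR kinase control that switches it on and off. Each was measured by the probe sets that the platform annotation pairs with its symbol and no other. This gave 51 probe sets for 31 of the 35 genes, out of 31042 probe sets that are not the manufacturer's controls. Map1lc3b, Gabarapl2, Nbr1 and Atg4c had no set under that rule and were not analysed here, 3 of them because their sets carry several symbols.

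The rats were 18-week-old males of the Goto-Kakizaki strain, a lean model of type 2 diabetes, and RNA was taken from the liver. The 4 persimmon peel livers came from rats that had eaten a purified diet, AIN-93G, with added persimmon peel extract for 12 weeks, and the 4 control livers from rats on the same diet without it. All 8 rats were therefore diabetic-strain animals, with no healthy strain beside them, and each liver had 1 array. The question was what the extract does to hepatic gene expression.

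Autophagy encloses a portion of the cytoplasm in a membrane and delivers it to the lysosome for breakdown. In the liver it supplies amino acids and fatty acids during fasting and removes damaged mitochondria, fat droplets and protein aggregates. The kinase complex mTORC1 suppresses the first step while amino acids and insulin are plentiful, and much of this control acts on proteins rather than on transcript levels. In whole liver, fewer cells of a type and less RNA per cell cannot be told apart.

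Values are MAS5 signals, the linear intensity that the manufacturer's algorithm gives each probe set. Arrays had median signals between 33.2 and 39.2 units, and bacterial control sets reached at most 14.5 units. Among 9 measured hepatocyte markers 0 were called, and their summed signal was 70148 to 75848 in persimmon peel livers and 75566 to 81072 in control livers. The 6 Kupffer cell markers summed to 4268 to 6185 in persimmon peel livers and 3916 to 4831 in control livers, with 0 called. The 5 sinusoidal endothelial markers summed to 3659 to 4601 in persimmon peel livers and 4491 to 4751 in control livers, and 1 of them, Fcgr2b, named after its value was seen, was called lower (log2 fold change -0.42, SE 0.08, adjusted p = 0.009 in the limma fit). The 6 stellate and fibroblast markers summed to 778 to 1001 units in persimmon peel livers and 842 to 1196 in control livers. Of all 9174 tested genes 1.93% were called lower. Such sums weigh the brightest markers most, and single markers of a list differed in sign. Log2 fold changes ran from -0.25 to 0.23 for hepatocyte, -0.01 to 0.20 for Kupffer cell, -0.42 to 0.27 for endothelial and -0.34 to 0.12 for stellate and fibroblast markers. The part that cell composition may have in the results below was not tested.

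Each gene was represented by its brightest probe set, and the diets were compared with limma on log2 signals as persimmon peel minus control. Calls were made where limma's p, adjusted by Benjamini-Hochberg over all 15521 tested sets, was under 0.05. In that fit 0 of the 31 autophagy and mTOR genes were called in either direction, where 1.93% of the 9174 tested genes were called lower and 0.469% higher. At an unadjusted p under 0.05, 4 of the 31 genes had a negative and 1 a positive log2 fold change, or 12.9% and 3.23%, against 9.48% and 6.8% of all tested genes. Over the 31 genes 16 log2 fold changes were negative and 15 positive, from -0.35 for Optn to 0.37 for Map1lc3a. Their median was -0.02, beside 0.01 over all tested genes.

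The intervals show how large a change could have been missed in the brightest sets. The 95% intervals reached to either side by between 0.14 and 0.37 on the log2 scale, with a median of 0.23. For 30 of the 31 genes the whole interval of the brightest set lay within a 1.5-fold change in either direction. The exception was Map1lc3a, whose interval ran from 0.05 to 0.70. This bound does not hold for every dimmer set of these genes. Intervals ran from -0.78 to -0.26 and from -0.97 to -0.31 in the dimmer sets of Atg12, and from 0.06 to 0.74 in a dimmer set of Atg7. A dimmer set each of Rb1cc1, Gabarapl1 and Atg5 also reached beyond 1.5-fold, to -0.69, -0.69 and -0.65. So did a dimmer set each of Wipi1 and Sqstm1, to 0.63 and 0.94. A p above the threshold does not show that the diets gave the same level.

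**Figure D1:**
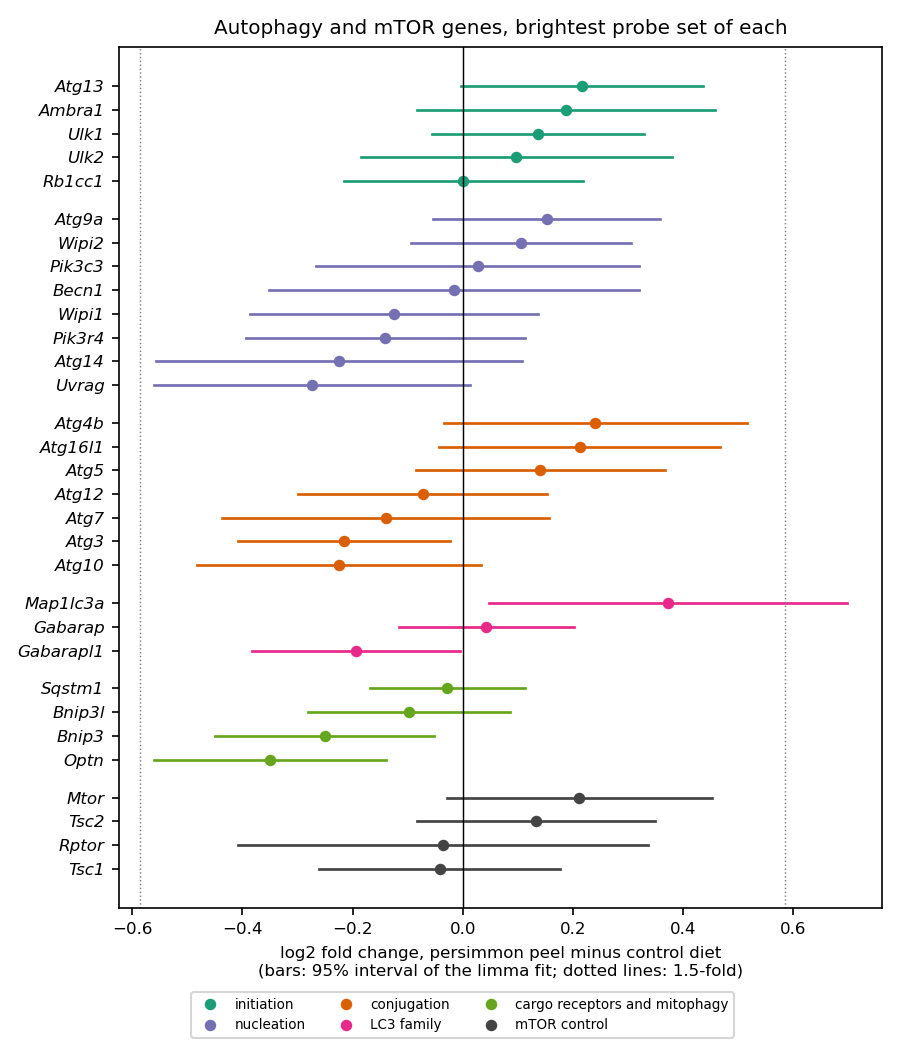
Log2 fold change of the brightest probe set of each of 31 genes, persimmon peel minus control diet, grouped by role, with the 95% interval of the limma fit (4 livers per diet). The values run from -0.35 for Optn to 0.37 for Map1lc3a, and only the interval of Map1lc3a crosses a dotted line, which marks a 1.5-fold change.

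The genes that start an autophagosome gave positive or zero differences in their brightest sets, none of which passed the test. Median centring put Rb1cc1 at -0.02, and with all sets of a gene averaged Ulk1 stood at -0.05 and Rb1cc1 at -0.21. Ulk1 encodes the kinase that mTORC1 inhibits and that sets autophagy in motion. Its brightest set had signals of 415, 386, 423 and 434 in persimmon peel livers and 372, 381, 375 and 378 in control livers. The diets did not overlap, but the difference was small, at 0.14 on the log2 scale (SE 0.09, adjusted p = 0.429). Atg13, a partner of that kinase in the same complex, had 549.8, 534, 632 and 496 units in persimmon peel livers and 533, 454, 443 and 472 in control livers. Here the 533 units of control array 1 lay inside the persimmon peel range (log2 fold change 0.22, SE 0.10, adjusted p = 0.263). Ulk2, the other kinase of this kind, had a log2 fold change of 0.10. That of Ambra1, which links the kinase to the lipid kinase complex, was 0.19, and that of the scaffold gene Rb1cc1 was 0.00. The adjusted p of these 3 genes in the same fit lay between 0.442 and 0.996.

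The lipid kinase complex that marks the growing membrane showed no call either. Its members are the kinase Pik3c3, the pseudokinase Pik3r4, the scaffold Becn1 and the alternative subunits Atg14 and Uvrag. Becn1 had 374, 280.2, 335 and 229 units in persimmon peel livers and 292, 249, 381 and 304 in control livers. Its livers varied more within each diet than the diets differed (log2 fold change -0.02, SE 0.16, adjusted p = 0.969). Uvrag had the most negative value of this group, -0.27 (SE 0.13, adjusted p = 0.279), with 245, 271, 184 and 246 units in persimmon peel livers and 301, 237, 317 and 284 in control livers. Control array 2 lay inside the persimmon peel range of Uvrag. Atg14 stood at -0.22, Pik3r4 at -0.14 and Pik3c3 at 0.03 on the log2 scale of the difference, with adjusted p between 0.454 and 0.939.

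Wipi1 and Wipi2 bind the lipid made by that complex, and Atg9a is a membrane protein that brings lipid to the growing sheet. Wipi2 had 271, 267, 278 and 277 units in persimmon peel livers and 254, 253, 259 and 249 in control livers. All 4 persimmon peel livers lay above all 4 control livers, at 0.11 on the log2 scale (SE 0.09, adjusted p = 0.567). The SD of its log2 signal was 0.03 in persimmon peel and 0.02 in control livers. The limma SE also draws on other sets of similar intensity. Atg9a had 545, 512, 632 and 557 units in persimmon peel livers and 467, 497, 536 and 518 in control livers, and the ranges overlapped (log2 fold change 0.15, SE 0.10, adjusted p = 0.406). Wipi1 stood at -0.12 (SE 0.12, adjusted p = 0.611).

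The enzymes that couple ubiquitin-like proteins to the membrane differed in sign. Atg7 is the activating enzyme, Atg3 and Atg10 are the carrier enzymes, Atg5, Atg12 and Atg16l1 form the complex that directs lipidation, and Atg4b is a protease that trims the LC3 family. Atg3 had 658, 674, 674 and 722 units in persimmon peel livers and 744, 727, 820.5 and 882 in control livers. The ranges did not overlap, by the narrow gap between 722 and 727 (log2 fold change -0.22, SE 0.09, adjusted p = 0.197). Atg10 had 88.5, 100.9, 94.6 and 85.7 units in persimmon peel livers and 105, 103, 107 and 116 in control livers, likewise without overlap (log2 fold change -0.22, SE 0.12, adjusted p = 0.327). Atg4b stood at 0.24, Atg16l1 at 0.21, Atg5 at 0.14, Atg12 at -0.07 and Atg7 at -0.14 on the log2 scale in their brightest sets. With all sets of a gene averaged Atg5 turned to -0.12 and Atg7 to 0.13. The adjusted p of these 5 lay between 0.322 and 0.748.

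The LC3 family supplies the small proteins that are attached to the autophagosome membrane. Gabarap had 3333, 3288, 3907 and 3611 units in persimmon peel livers and 3274, 3597, 3261 and 3575 in control livers. Persimmon peel arrays 3 and 4 lay above every control liver and the other 2 lay within the control range (log2 fold change 0.04, SE 0.07, adjusted p = 0.794). Gabarapl1 had 986, 962, 1030 and 1080 units in persimmon peel livers and 1047, 1220.1, 1102 and 1284 in control livers. Only persimmon peel array 4 reached the control range of Gabarapl1 (log2 fold change -0.19, SE 0.09, adjusted p = 0.238). Map1lc3a had 239.7, 186, 316 and 291 units in persimmon peel livers and 210.2, 188, 172 and 214 in control livers. Of the persimmon peel livers 3 lay above every control liver and 1, array 2, lay within the control range (log2 fold change 0.37, SE 0.15, adjusted p = 0.183). Without persimmon peel array 2 Map1lc3a passed the test (0.52, adjusted p = 0.0266). In that fit 2.91% of all tested genes were called lower and 1.99% higher, in place of 1.93% and 0.469%. Over all 8 fits that left out 1 array the adjusted p of Map1lc3a ran to 0.357. With the beta-actin ratio described below as a covariate its value turned to -0.19.

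Cargo receptors tether what is to be degraded, and the mitophagy receptors Bnip3 and Bnip3l do this on mitochondria. All 4 measured genes of this group had negative log2 fold changes and 0 passed the test. Sqstm1 turned to 0.06 under quantile normalization and to 0.07 with its sets averaged. That average gives equal weight to its second set, at -0.20, and its dimmest tested set, at 0.43. The dimmest tested set averaged only 48.6 units in persimmon peel and 36.2 in control livers. Over the whole array 47.4% of all tested genes had a negative value. Sqstm1, the receptor p62 that is itself degraded with its cargo, had 6077, 5419, 6486 and 5996 units in persimmon peel livers and 6173, 6368, 5879.9 and 5996 in control livers. The control range lay inside the persimmon peel range, at -0.03 on the log2 scale (SE 0.07, 95% interval -0.17 to 0.11, adjusted p = 0.854). Optn, a receptor for ubiquitin-coated mitochondria and bacteria, had 809, 793, 952 and 957 units in persimmon peel livers and 1096, 1082, 1017 and 1279 in control livers. Every persimmon peel liver lay below every control liver, and the log2 fold change was -0.35 (SE 0.10, adjusted p = 0.0571). Optn passed the test under quantile normalization (-0.28, adjusted p = 0.0394), median centring (-0.37, adjusted p = 0.0341) and array weights (-0.35, adjusted p = 0.0372), and in 0 of the 8 fits that left out 1 array (adjusted p from 0.0529 to 0.175). Bnip3 had 462, 442, 518 and 474 units in persimmon peel livers and 567, 537, 541 and 612 in control livers. These ranges did not overlap either, at -0.25 on the log2 scale (SE 0.09, adjusted p = 0.143). Bnip3l stood at -0.10 (SE 0.09, adjusted p = 0.562), with 933, 924, 1048 and 1055 units in persimmon peel livers and 977, 1058, 1071 and 1129 in control livers.

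The measured mTOR control genes were the kinase Mtor, the mTORC1 subunit Rptor, and Tsc1 and Tsc2, whose complex restrains mTORC1. Mtor had 206, 187, 223 and 222 units in persimmon peel livers and 183, 184, 159 and 198 in control livers. Persimmon peel array 2 lay within the control range (log2 fold change 0.21, SE 0.11, adjusted p = 0.321). Tsc2 had 235, 229.5, 252 and 257 units in persimmon peel livers and 220.5, 237, 208 and 224 in control livers, with overlap (log2 fold change 0.13, SE 0.10, adjusted p = 0.502). Tsc1 had 192, 195, 215 and 189.7 units in persimmon peel livers and 198, 199.7, 199 and 216 in control livers, and its ranges overlapped (log2 fold change -0.04, SE 0.10, adjusted p = 0.863). Rptor stood at -0.04 (SE 0.17, adjusted p = 0.935).

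The diets did not overlap for 4 genes with the lower values in persimmon peel livers, Atg3, Atg10, Optn and Bnip3, and for 2 genes with the higher values there, Ulk1 and Wipi2. These counts are 12.9% and 6.45% of the 31 genes, against 7.21% and 3.24% of all tested genes, or 10.4% in either direction.

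**Figure D2:**
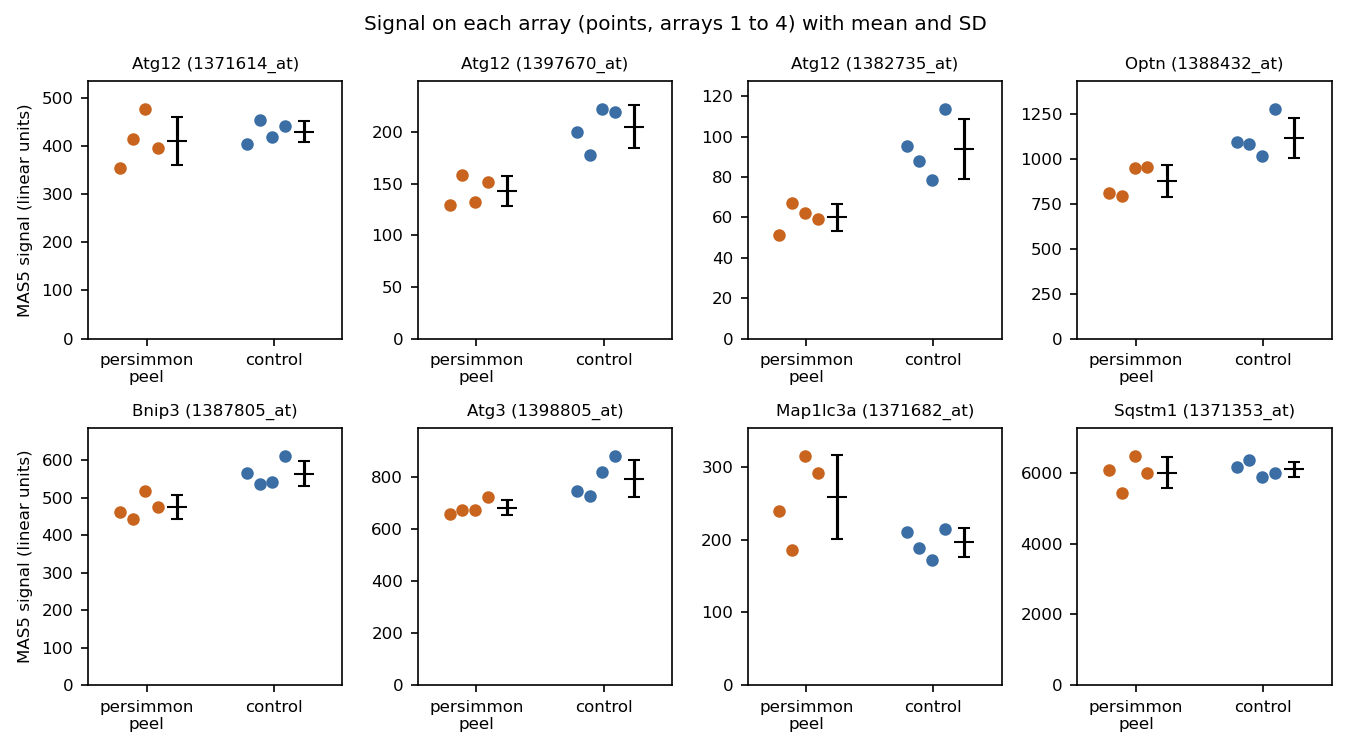
MAS5 signal on each of 8 arrays (points, linear scale from 0) for the 3 tested probe sets of Atg12 and the brightest sets of Optn, Bnip3, Atg3, Map1lc3a and Sqstm1, with mean and SD (bars, n = 4 per diet). The dimmer sets of Atg12 and the sets of Optn, Bnip3 and Atg3 show no overlap between the diets, while the diets overlap for Sqstm1, from 5419 to 6486 in persimmon peel and 5879.9 to 6368 in control livers.

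Many of the genes had their highest value on the same array. Of the 31 genes 22 had their highest persimmon peel value on array 3, as did 63.7% of all tested genes, and that array also had the highest median signal of the 8, 39.2 units. Of the control arrays number 4 held the highest value for 15 of the 31 genes, and for 42.9% of all tested genes. The mean log2 level of the 31 genes, each centred on its own mean, was -0.06, -0.08, 0.14 and -0.02 in persimmon peel livers and -0.02, -0.01, -0.04 and 0.08 in control livers. The spread among persimmon peel livers thus exceeded the difference of -0.005 between the diet means. Uvrag ran against this pattern, with its lowest value of all 8 livers, 184 units, on persimmon peel array 3. The SD of log2 signal was larger among persimmon peel than among control livers for 25 of the 31 genes, with medians of 0.15 and 0.12, beside 0.18 and 0.14 over all tested genes.

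**Figure D3:**
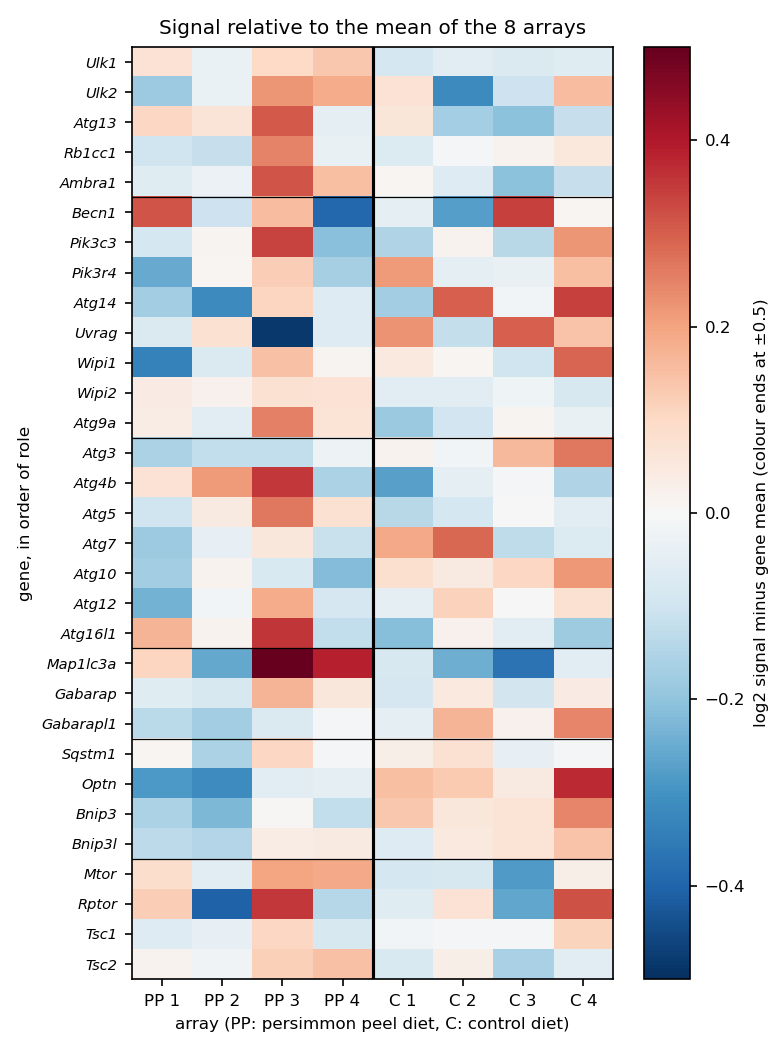
Log2 signal of the brightest set of each of 31 genes on 8 arrays, minus the gene's mean over the 8 (colour; red above, blue below), with persimmon peel arrays on the left and control arrays on the right. Persimmon peel array 3 holds the highest persimmon peel value in 22 of 31 genes, and control array 4 the highest control value in 15.

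The other probe sets of these genes did not always follow the brightest. Among the 51 sets 45 were bright enough to be tested, and 12 genes had several tested sets, which gave 14 sets beside the brightest. Of the 45 sets 2 were called lower and 0 higher, where 4.53% of all tested sets were called lower and 0.425% higher. At an unadjusted p under 0.05 the log2 fold change was negative in 10 and positive in 2 of the 45, against 13.4% and 6.19% of all tested sets. Of these 14 sets 2 were called lower and 0 higher, or 14.3% lower, against 13.8% lower and 0.302% higher among all tested sets that were not the brightest of their gene. The log2 fold change was negative in 10 of the 14, or 71.4%, against 65.6% of all such sets. In 7 of the 12 genes another set had the opposite sign to the brightest, among them Rb1cc1, whose brightest set stood at 0.001 on the log2 scale. The share of such genes among all genes with several tested sets is not given here.

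Both called sets belonged to Atg12, the ubiquitin-like protein that is joined to Atg5. Its set 1397670_at had 129.6, 159, 132 and 151 units in persimmon peel livers and 200.3, 178, 222 and 220.0 in control livers. Its dimmest set, 1382735_at, had 51.3, 67.0, 62.5 and 59.5 units in persimmon peel livers and 95.4, 88.1, 78.5 and 114 in control livers. In both sets all 4 persimmon peel livers lay below all 4 control livers. The log2 fold changes were -0.52 (SE 0.12, adjusted p = 0.0227) and -0.64 (SE 0.15, adjusted p = 0.028). The brightest set, 1371614_at, had 355, 414, 476 and 395 units in persimmon peel livers and 404, 453, 418 and 441 in control livers, and its diets overlapped (log2 fold change -0.07, SE 0.11, adjusted p = 0.748). When the 3 sets were averaged, Atg12 passed the test at -0.41 (adjusted p = 0.0467).

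The calls of the Atg12 sets were not kept in every fit that left out 1 array. Calls over all tested genes moved as well. The reported fit called 1.93% of genes lower, and these fits between 0.589% and 1.34%, apart from 2.91% without persimmon peel array 2. Set 1397670_at kept its sign but did not pass without persimmon peel array 1 (adjusted p = 0.0799) or 3 (0.0508), or without control array 1 (0.0564), 3 (0.0686) or 4 (0.0839). Set 1382735_at did not pass without persimmon peel array 1 (adjusted p = 0.095) or 4 (0.0594), or without control array 1 (0.076) or 4 (0.105), and not with the dim sets left in (0.0703).

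Other dimmer sets stood at the edge of the threshold. In Rb1cc1 the second set, 1385194_at, had 161, 165, 181 and 130.2 units in persimmon peel livers and 198, 231, 203 and 219 in control livers, while the brightest set stood at 0.00 on the log2 scale. Its log2 fold change was -0.43 (SE 0.12, adjusted p = 0.0592). The second set of Gabarapl1, 1378842_at, had 244, 256, 207 and 195 units in persimmon peel livers and 303, 263, 291 and 351 in control livers. It stood at -0.42 (SE 0.12, adjusted p = 0.0642), so that both sets of Gabarapl1 had negative values. The second set of Atg5, 1373526_at, had 75.8, 89.1, 89.3 and 80.5 units in persimmon peel livers and 113, 102, 108 and 113 in control livers. Its log2 fold change was -0.39 (SE 0.12, adjusted p = 0.0883), against 0.14 in the brightest set. In all 3 of these sets the diets did not overlap. The same held for the second sets of Sqstm1, 1389381_at, and Bnip3l, 1386978_at, both with the lower values in persimmon peel livers. Of all 15521 tested sets 12.9% showed no overlap, counting either direction. The sets named here were not the brightest of their gene, and the share without overlap among such sets alone is not given here. Lower calls were more frequent among such sets, at 13.8%, than among all tested sets, at 4.53%.

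Sqstm1 had 3 tested sets with values of -0.03, -0.20 and 0.43 on the log2 scale from the brightest to the dimmest, with adjusted p between 0.166 and 0.854. Optn had -0.35 in the brightest and -0.20 in the dimmer set (adjusted p = 0.0571 and 0.346). Bnip3l had -0.10 and -0.14, and Atg4b had 0.24 and 0.18, so these 3 genes kept 1 sign over their sets. Ulk1 (0.14 and -0.23), Atg9a (0.15 and -0.20) and Wipi1 (-0.12 and 0.20) did not, and none of their sets passed the test (adjusted p between 0.331 and 0.619). Tested sets near the lowest mean signal of 34.4 units, such as the dimmer set of Wipi1 with 38.0 ± 7.14 units in persimmon peel and 32.7 ± 2.65 in control livers (SD, n = 4 each), carry the widest errors.

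**Figure D4:**
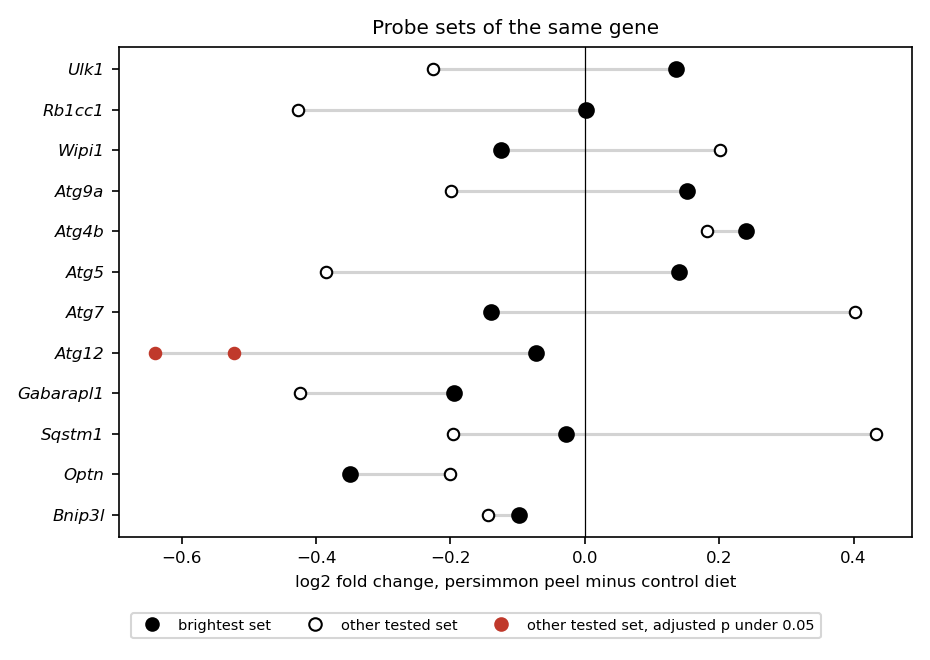
Log2 fold change, persimmon peel minus control diet, of every tested probe set of the 12 genes with several (filled black: brightest set; open: other sets; red: other sets with an adjusted p under 0.05). The red points are the sets of Atg12 at -0.52 and -0.64, and 7 of the 12 genes have sets on both sides of 0.

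Whether the sets of a gene differed by diet to unequal degrees was tested on the log2 difference between its dimmest and its brightest tested set, with limma over the 2295 genes that had several. Among the 12 autophagy and mTOR genes this difference was lower in persimmon peel livers for 2, Atg12 and Atg5, and higher for 1, Atg7, against 11.8% lower and 1.05% higher over all such genes. At an unadjusted p under 0.05 there were 4 lower and 1 higher, against 25.8% and 4.49%. For Atg5 the difference was -1.72, -1.63, -1.85 and -1.81 in persimmon peel livers and -1.11, -1.30, -1.30 and -1.19 in control livers. The diets lay apart by -0.53 (SE 0.12, adjusted p = 0.0225). For Atg12 it was -2.79, -2.63, -2.93 and -2.73 in persimmon peel livers and -2.08, -2.36, -2.41 and -1.96 in control livers, again without overlap (-0.57, SE 0.15, adjusted p = 0.0369). For Atg7 it was -0.05, 0.19, 0.19 and -0.15 in persimmon peel livers and -0.58, -0.85, -0.41 and -0.15 in control livers, with arrays 4 of the diets almost equal (0.54, SE 0.16, adjusted p = 0.0491). Rb1cc1 missed the threshold at -0.43 (SE 0.13, adjusted p = 0.053).

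These calls on set differences were also not kept in every fit that left out 1 array. Atg12 and Atg5 kept the call without persimmon peel array 2 (adjusted p = 0.0229 and 0.0108) or control array 2 (0.0475 and 0.0389). They did not pass without persimmon peel arrays 1 (0.0812 for Atg12 and 0.051 for Atg5), 3 (0.0998 and 0.0614) or 4 (0.0643 and 0.051), or control arrays 1 (0.101 and 0.0673), 3 (0.0575 and 0.0515) or 4 (0.114 and 0.0683). Atg7 passed in 0 of the 8 fits (adjusted p between 0.06 and 0.126). Rb1cc1 passed without persimmon peel array 2 (0.028). The shares called in these fits over all genes with several tested sets are not given here.

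Control sets for separate stretches of 1 transcript differed between the diets as well. For beta-actin, a common check of RNA and labelling quality, the middle set minus the 3' set on the log2 scale was -1.18, -0.92, -1.09 and -1.05 in persimmon peel livers and -0.76, -0.77, -0.75 and -0.78 in control livers. The groups lay apart (exact two-sided permutation test, p = 0.0286, the smallest that 70 splits allow). The 5' set minus the 3' set of beta-actin also lay apart, at -1.97 ± 0.22 in persimmon peel and -1.68 ± 0.12 in control livers (SD, n = 4 each, exact permutation p = 0.0286). The median over all genes of the dimmest minus the brightest set was -1.51 ± 0.08 in persimmon peel and -1.36 ± 0.04 in control livers (SD, n = 4 each, exact permutation p = 0.0286). For GAPDH the 5' minus 3' value was -0.43 ± 0.08 in persimmon peel and -0.29 ± 0.10 in control livers (SD, n = 4 each, exact permutation p = 0.0857). The middle minus 3' value for GAPDH averaged -0.59 ± 0.05 in persimmon peel and -0.58 ± 0.03 in control livers (SD, n = 4 each), where the exact permutation p was 0.857. When the ratio of beta-actin entered the fit as a covariate, the Atg12 sets stood at -0.16 and -0.32, the median of all tested genes at -0.11, and 0 genes passed. Since the ratio did not overlap between the diets, ratio and diet cannot be told apart in this design. Where each set lies on its transcript was not analysed here.

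**Figure D5:**
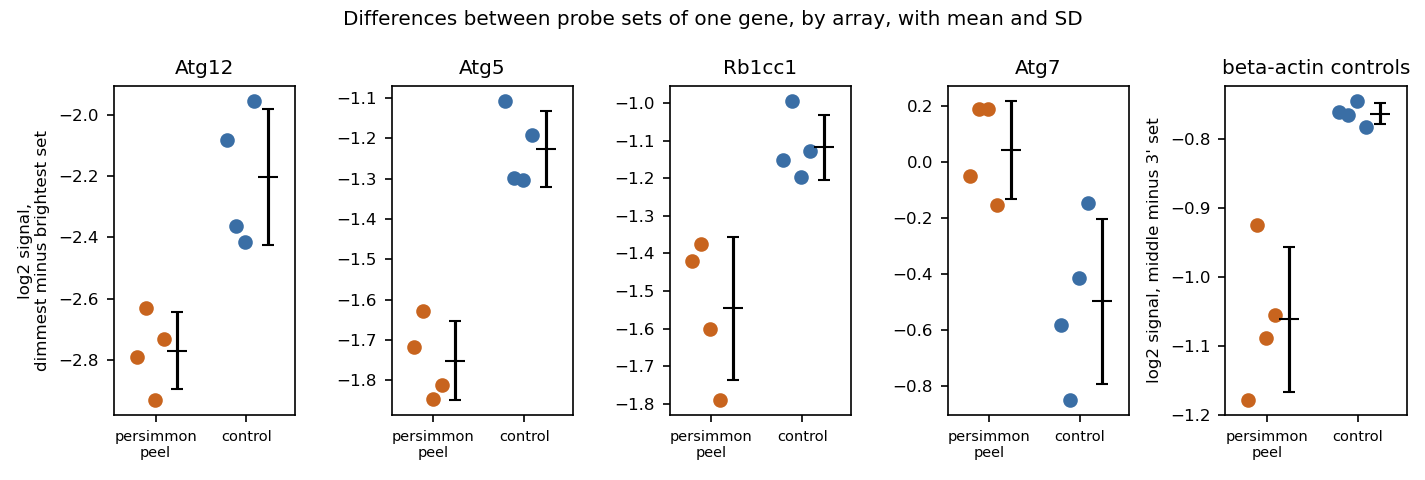
Log2 signal of the dimmest minus the brightest tested set of Atg12, Atg5, Rb1cc1 and Atg7, and of the middle minus the 3' beta-actin control set, on each array, with mean and SD (n = 4 per diet; the vertical axes differ). Persimmon peel livers lie below control livers without overlap in Atg12, Atg5, Rb1cc1 and beta-actin, and above them on average in Atg7.

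Further genes of autophagy and mTOR control were counted in 7 lists with 130 tested genes. Of these 5 were called lower and 0 higher in the limma fit on their brightest sets, or 3.85% lower, against 1.93% lower and 0.469% higher of all tested genes. The lists were chosen with earlier results of these data known, so these shares cannot serve as a test of the lists. Their median log2 fold change was 0.05, beside 0.01 over all tested genes. The split of calls by direction depended on the scaling. Under quantile normalization 2 of the 130 genes were lower and 6 higher, while over all tested genes the calls were 131 lower and 194 higher in place of 177 and 43, so that 40.3% of calls were lower in place of 80.5%.

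In the list of amino acid sensing by mTORC1, 2 of 24 tested genes were lower and 0 higher. Beside this count and those of the lists below stand 1.93% lower and 0.469% higher of all tested genes. Seh1l, a subunit of the GATOR2 complex that relays amino acid supply to mTORC1 and also of the nuclear pore, had 319, 298, 304 and 323 units in persimmon peel livers and 443, 413, 417 and 439 in control livers. The diets lay well apart, and the log2 fold change was -0.46 (SE 0.09, adjusted p = 0.0101). It passed in each of the 8 fits without 1 array, and its dimmer set stood at -0.11 (SE 0.17, adjusted p = 0.761). With both sets averaged Seh1l stood at -0.29 and did not pass (adjusted p = 0.151), nor did it without persimmon peel arrays 1 and 3 together (0.0653). Rraga, a Rag GTPase that recruits mTORC1 to the lysosome, had 462, 533, 501 and 531 units in persimmon peel livers and 678, 588, 671 and 630.4 in control livers. It was lower without overlap (log2 fold change -0.34, SE 0.09, adjusted p = 0.0477), but of the fits without 1 array it passed only without persimmon peel array 2, and its adjusted p reached 0.154 without persimmon peel array 1. Of all tested genes 2.91% were called lower without persimmon peel array 2 and 0.621% without persimmon peel array 1. Over all 19 alternatives Rraga passed in 4, and it did not pass under quantile normalization (0.0776), median centring (0.0589), no filter (0.0625) or no intensity trend (0.0929).

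Of 21 tested genes for mTOR complexes and kinase inputs 1 was lower and 0 higher. This was Prkaa2, a catalytic subunit of AMP-activated protein kinase, which activates Ulk1 and restrains mTORC1. It had 847, 712, 1077 and 623 units in persimmon peel livers and 1354, 981, 1170.5 and 1160 in control livers. Control array 2 lay within the persimmon peel range, and the log2 fold change was -0.54 (SE 0.15, adjusted p = 0.0473). Of the fits without 1 array it passed without persimmon peel array 3 or control array 2 only, and its adjusted p reached 0.135 without control array 1. Over all 19 alternatives Prkaa2 passed in 7, and not under quantile normalization (0.0592), no filter (0.109) or no intensity trend (0.12).

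Among 20 tested genes for other receptors and mitophagy 1 was lower and 0 higher. Tbk1, a kinase that phosphorylates Optn and Sqstm1, had 261, 309, 275 and 286 units in persimmon peel livers and 357, 336, 367 and 418 in control livers. The diets did not overlap (log2 fold change -0.39, SE 0.10, adjusted p = 0.0478). Of the fits without 1 array it passed only without persimmon peel array 2, and its adjusted p reached 0.156 without control array 4. The share of all tested genes called lower was 2.91% without persimmon peel array 2 and 0.589% without control array 4. Over all 19 alternatives Tbk1 passed in 5, and not under quantile normalization (0.0621), no filter (0.0665) or no intensity trend (0.0777).

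The list of transcription factors had 1 of 16 tested genes lower and 0 higher, Ppara, a nuclear receptor of the fasting response that activates autophagy genes in mouse liver. It had 44.2, 42.9, 53.0 and 29.3 units in persimmon peel livers and 99.0, 68.6, 89.0 and 121 in control livers, at -1.16 on the log2 scale (SE 0.21, adjusted p = 0.00658). The persimmon peel values are close to the dimmest signal tested, so the size of this change is uncertain. With a pseudocount of 16 it stood at -0.91 (adjusted p = 0.00553). Ppara passed in 17 of 18 alternatives, among them each of the 8 fits without 1 array, and did not pass with the beta-actin ratio as covariate.

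The other 3 lists held no call in either direction, with 11 tested genes for mTORC1 outputs, 24 for other autophagy genes and 14 for autophagosome fusion. At an unadjusted p under 0.05 these lists had 2, 2 and 1 genes with negative and 2, 4 and 1 genes with positive values. The shares of all tested genes were 9.48% negative and 6.8% positive. Among the outputs the cap-binding protein gene Eif4e stood at a log2 fold change of -0.30 (adjusted p = 0.112) and Eif4ebp1, its mTORC1-controlled inhibitor, at 0.29 (adjusted p = 0.145). The membrane protein gene Vmp1, needed to form the autophagosome, stood at -0.36 (adjusted p = 0.0687), and the kinase gene Dapk3 at 0.29 (adjusted p = 0.138). For fusion with the lysosome the SNARE gene Ykt6 stood at -0.36 (adjusted p = 0.222) and the tethering subunit gene Vps16 at 0.28 (adjusted p = 0.229). None of these 6 genes passed in this limma fit.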

How the data were processed

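The authors deposited 1 linear intensity per probe set and array, made with MAS5 per the submitters' processing notes. Its version, scaling target and presence calls were not analysed here. All 8 columns were used, and each was assigned to its diet by its label. Gene names came from the platform annotation, updated through RefSeq (assembly GRCr8, names only). Of 31042 sets other than the 57 controls, 20826 had 1 symbol, 436 several and 9780 none.

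Values were transformed to log2 without a pseudocount. The dimmest 50% of probe sets by mean over the 8 arrays were left out, which left 15521 sets, the lowest with a mean of 34.4 units. The fit was limma 3.58.1 in R 4.3.3 (lmFit, eBayes with an intensity trend, two-sided), adjusted over all tested sets, or over the 2295 genes for set differences. Every adjusted p is from limma, every SE is its moderated one. The step was tested on simulated data. The number of arrays limits the precision, and p-values measure the spread between these livers. The genes and lists were chosen with earlier results of these data known. All members with a set are named, of other genes those called or, in lists without a call, the leading 2 by p. By that rule values per array are given for Atg12 and the 2 brightest genes of 4 groups (initiation with nucleation, conjugation with the LC3 family, cargo receptors with mitophagy, mTOR control), and for the other genes after their values were seen. Same-numbered arrays of the diets were not paired, since their deviations correlated with r between -0.08 and 0.05. Alternatives covered scaling, the pseudocount, the filter, the variance model, the replicate block, single arrays left out, the beta-actin ratio and the mean of a gene's sets.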

Additional observations from a re-analysis of the deposited data

Results flagged for a closer look

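In 3 of 124 groups of 4 arrays checked, 1 array stood apart from the other 3 by more than Dixon's 95% critical value. Chance flags about 1 group in 20. For Tsc1 control array 4 had 216.4 units, the other control arrays 198 to 199.7. For the dimmer set of Optn persimmon peel array 4 had 126.91 units, the other persimmon peel arrays 138 to 140.2. For the dimmest tested set of Sqstm1 control array 1 had 23.216 units, the other control arrays 39.6 to 41.2. None of these 3 sets was called between the diets by limma.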

How the results depend on the processing

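All counts here are limma calls. Among the 31 genes 1 was lower under quantile normalization, 1 under median centring, 1 with array weights and 1 with all sets of a gene averaged, against 0 in the reported fit, and between 0 and 1 were higher with 1 array left out. Of all tested genes 1.43%, 2.45%, 2.76% and 3.1% were lower in these settings, in that order, against 1.93% in the reported fit. With 1 array left out 0.0872% to 1.99% of all tested genes were higher. The median over the 31 genes ran from -0.08 to 0.04. The sign changed in at least 1 of 19 settings for 17 of the 31 genes. It changed for 10 genes with the beta-actin ratio as covariate and for 7 with sets averaged, and Rb1cc1 is among both. Under quantile normalization it changed for 2 genes, with array weights for 2 and with median centring for 1. Without persimmon peel arrays 1 and 3 it changed for 2, and with 1 array left out for 0 to 3. Among the 45 member sets (2 lower) the lower calls were 4 with quantile normalization, 5 with median centring, 1 with no filter, 1 with the dimmest 70% left out, 4 with array weights, 0 with the beta-actin ratio as covariate and 0 without persimmon peel arrays 1 and 3. With 1 array left out they ran from 0 to 3, and the higher calls from 0 to 1. The shares over all tested sets in these settings are not given here, so these counts cannot be set against the whole array. Of the 130 other pathway genes (5 lower, 0 higher) 2 were lower and 6 higher under quantile normalization, 2 lower with no filter, 3 with the stricter filter, 2 without the intensity trend, 0 with the covariate, 2 without persimmon peel arrays 1 and 3 and 2 with sets averaged. With 1 array left out 2 to 7 were lower and 0 to 2 higher. Of all tested genes 1.43% were lower and 2.11% higher under quantile normalization. The share lower was 0.689% with no filter, 2.43% with the stricter filter and 0.785% without the intensity trend. It was 0% with the covariate, 0.0872% without persimmon peel arrays 1 and 3 and 3.1% with sets averaged. With 1 array left out it ran from 0.589% to 2.91%. For set differences (2 lower, 1 higher) 4 were lower with array weights and 0 in either direction with no filter, with the covariate and without persimmon peel arrays 1 and 3. The 1 higher call became 0 with the stricter filter and without the trend. With 1 array left out 0 to 4 were lower and 0 higher. Shares over all genes with several tested sets are not given here for these settings. Atg5 and Atg7 had no set difference under the stricter filter. The cause of these shifts was not tested. Some settings use fewer arrays or another choice of sets by construction.

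Same-numbered arrays share only a number (r of their deviations 0.02, -0.08, 0.05 and 0.04), and not every array correlated best with its own number. With the replicate block 0 of the 31 genes were called and 0 of the set differences in either direction. Sets close to the dimmest signal tested, 34.4 units, are limited by signal over background.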
